A study of Mus musculus with 12 samples.

Results

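Antiviral interferon-stimulated genes (ISGs) were followed in mouse bone marrow-derived macrophages given hepcidin or PBS. The set holds 9 classical type I interferon targets, Ifit1, Ifit2, Ifit3, Isg15, Rsad2, Oasl1, Mx1, Usp18 and Stat2. They were chosen by symbol, each with 1 probe set, out of 24675 named genes on the array, and all 9 were measured. Hepcidin, a liver hormone, controls iron levels by binding the iron exporter ferroportin. Total RNA was hybridized to 12 Affymetrix whole-transcript arrays in 4 groups of 3: hepcidin for 3 h, PBS for 3 h, hepcidin for 1 h and PBS for 1 h. The cells came from wild-type mice aged 8 to 10 weeks, whose strain and number the labels do not give. Marrow precursors grew for 7 days with L cell-conditioned medium as the source of M-CSF, and the macrophages of every group spent 1 h in DMEM alone before the addition. The hepcidin dose is unsettled, because the labels give 1 µg/ml in one protocol and 10 µg/ml in another. Whether the 3 arrays of a group stem from different mice or cultures is not stated, so the p-values reflect the spread among these arrays alone, and that spread may be technical.

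Type I interferons bind a receptor made of Ifnar1 and Ifnar2, whose kinases activate Stat2. With Irf9 it forms part of a complex that binds the interferon-stimulated response element (ISRE) in the promoters of antiviral genes. Macrophages keep a low level of this programme running without infection and raise it strongly after sensing viral or bacterial molecules, in large part through newly made interferon beta.

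All values below are on the log2 scale of the deposited table. Array medians lay between 4.84 and 4.94, and arrays of a group correlated with r between 0.994 and 0.997 across probe sets. The mean of each of the 9 genes lay above 4.87, the median of all gene means. Of 10 macrophage markers, 8 were on the array and all 8 lay above the array median in every group. The mean over the list lay between 10.8 and 11.0 on each array. With hepcidin at 3 h, 2 of the 8 rose and 1 fell in limma, beside 2.80% of all genes higher and 2.53% lower. The largest difference of the list at 3 h was -1.08 for Mertk, which averaged 7.83 with hepcidin and 8.91 with PBS. The 10 markers of plasmacytoid dendritic cells, potent interferon producers, averaged 4.44 to 4.64 on every array. In each group 3 of the 10 lay above the array median, the highest being Tcf4, a transcription factor not limited to these cells, with group means between 8.92 and 9.11, while their surface receptor Siglech lay between 3.26 and 3.74. None of these 10 passed limma's test in either hepcidin comparison, and 1 in each was under an unadjusted p of 0.05. Markers of conventional dendritic cells, neutrophils, lymphocytes and fibroblasts likewise had 0 that passed in either, with 1, 1, 0 and 1 under an unadjusted p of 0.05 at 3 h and 2, 0, 0 and 0 at 1 h. Those above the array median numbered 0 or 1, 3 or 4, 1 or 2 and 2 or 3 by group, in the same order of cell types.

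The promoters are shown because the ISRE is the element through which the complex of Stat2 and Irf9 reaches these genes. Windows from 250 bases before to 50 bases after the gene start were in the RefSeq table (GRCm38.p6) for 7 of the 9 genes; Mx1 and Usp18 are named only. The ISRE was searched as GAAANNGAAA and, for the other strand, TTTCNNTTTC, and capitals mark the matches with 20 bases on each side. Each stretch is written 5′ to 3′ on the strand of its gene.
Ifit1 (chr19:34640765-34640833, plus strand): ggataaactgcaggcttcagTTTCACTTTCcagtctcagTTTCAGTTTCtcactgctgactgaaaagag
Ifit3 (chr19:34583353-34583436, plus strand): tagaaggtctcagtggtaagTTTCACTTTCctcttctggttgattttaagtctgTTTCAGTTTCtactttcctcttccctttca
Isg15 (chr4:156200855-156200916, minus strand): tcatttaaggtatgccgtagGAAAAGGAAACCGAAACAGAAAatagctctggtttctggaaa
Rsad2 (chr12:26456543-26456592, minus strand): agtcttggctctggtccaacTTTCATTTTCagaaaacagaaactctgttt
Stat2 (chr10:128270256-128270305, plus strand): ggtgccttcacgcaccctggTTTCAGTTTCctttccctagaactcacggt

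Ifit1 and Ifit3 each carried 2 matches, which begin 104 and 85 bases before the start in Ifit1 and 156 and 122 bases before it in Ifit3. The 3 matches of Isg15 each overlap the next and begin 78, 72 and 66 bases before the start, while those of Rsad2 and Stat2 begin 120 and 222 bases before it. Ifit2, with 2 annotated starts, and Oasl1 had no match to these letters in their windows. The motif was thus found in 5 of 7 genes of the set, in 25 of 59 other antiviral ISGs with a window and in 3.99% of all 27025 genes in the table. The gamma-activated site, searched as TTCNNNGAA, matched in Ifit2 alone among the 7 genes and in 9.55% of all genes. A kappaB motif, on either strand, matched in Oasl1 alone and in 5.14% of all genes. A match is a run of letters and does not show binding.

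At 3 h, hepcidin raised 2 of the 9 genes, Ifit1 and Rsad2, and lowered none past the threshold, an adjusted p under 0.05 in limma. Both calls ended when only the 6 arrays of 3 h were fitted (adjusted p = 0.0603 for Ifit1 and 0.105 for Rsad2), and 0 to 3 of the 9 genes passed when 1 array was left out. Across all genes 5.33% passed in that comparison, 2.80% higher and 2.53% lower. The median change of the 9 genes was 0.05, against 0.02 over all genes. In bulk RNA, fewer cells expressing a gene and less RNA per cell cannot be told apart. The plot of values by array shows that the groups of Ifit1, Rsad2 and Isg15 lay wholly higher with hepcidin at 3 h and that of Stat2 wholly lower. Those 3 of 9 and 1 of 9 stand beside 11.8% of all genes that did not overlap on the higher side and 9.90% on the lower side.

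**Figure D1:**
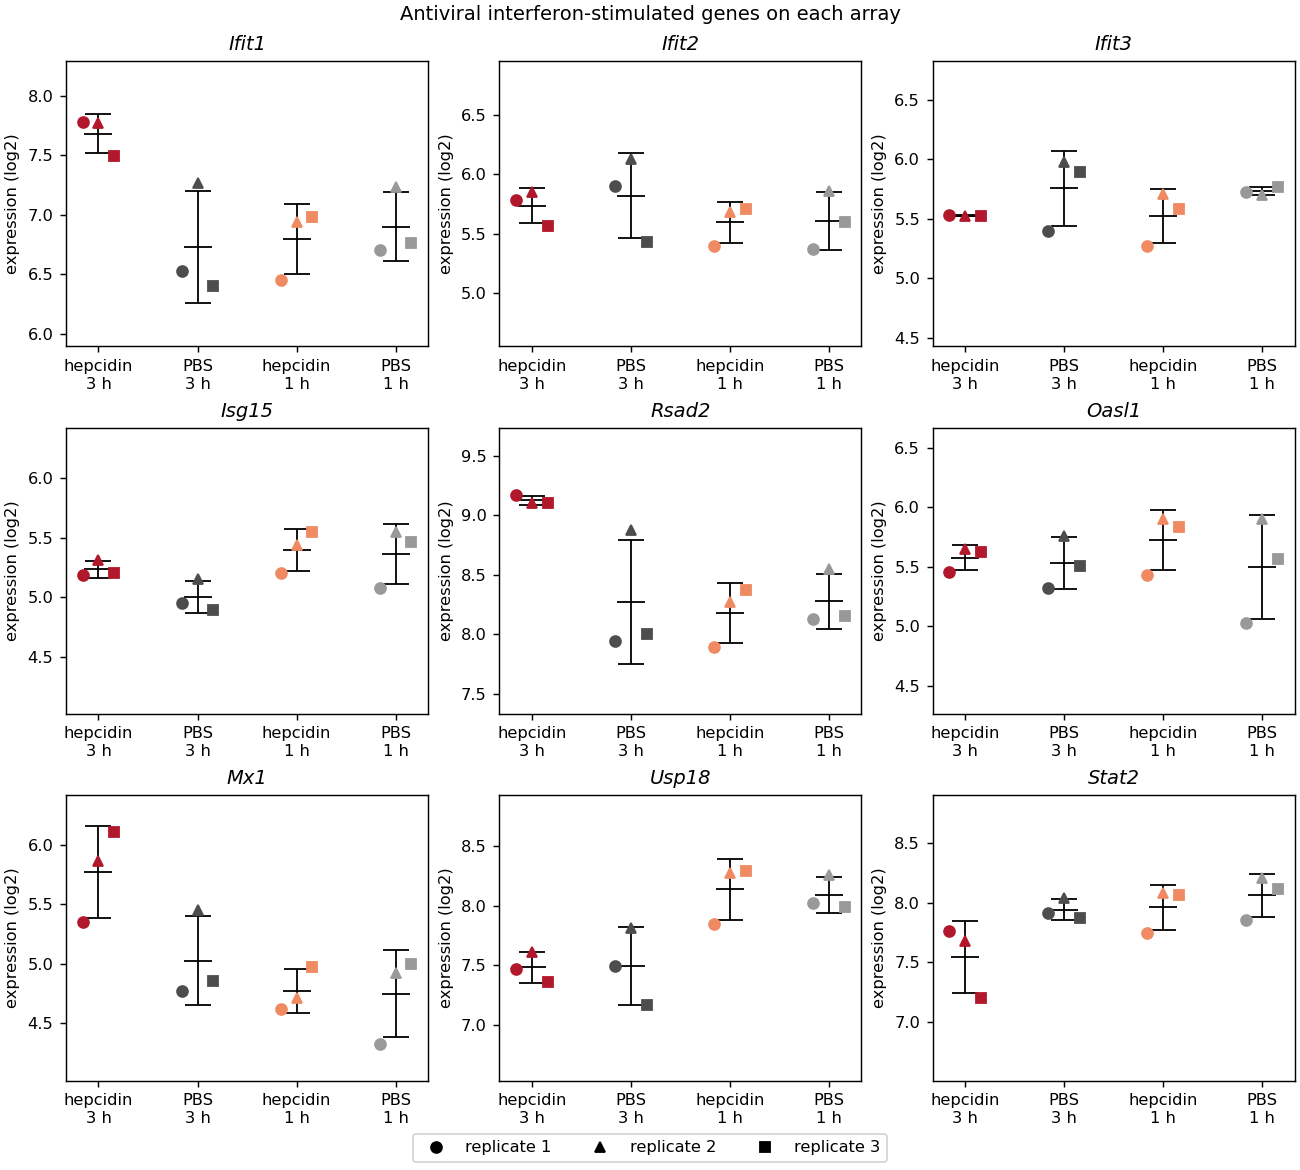
Each panel gives 1 gene's log2 expression on every array, in the order hepcidin 3 h, PBS 3 h, hepcidin 1 h and PBS 1 h; symbols mark the replicate number, and the black bars give the mean ± SD of 3 arrays. Every panel spans the same log2 range. Ifit1 and Rsad2 stand highest in all 3 hepcidin arrays of 3 h, and the triangle of PBS at 3 h, replicate 2, is the highest of its group in all 9 panels.

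Among the effectors, Ifit1 (Entrez gene 15957) encodes a protein that binds viral RNA lacking the host's cap methylation and blocks its translation. Its values were 7.78, 7.77 and 7.49 with hepcidin at 3 h, against 6.52, 7.27 and 6.40 with PBS at 3 h. At 1 h they were 6.45, 6.94 and 6.98 with hepcidin, against 6.71, 7.23 and 6.76 with PBS. All 3 hepcidin arrays of 3 h exceeded each of the other 9 arrays, while the remaining 3 groups overlapped. Ifit1 rose by 0.95 at 3 h (SE 0.22, n = 3 each; adjusted p = 0.0251 in limma), or 1.93-fold. Without PBS replicate 2 of 3 h the change was 1.22 (adjusted p = 0.00297), and without PBS replicate 3 it was 0.79 (adjusted p = 0.116). The call was also lost without hepcidin replicate 1 or 2 or PBS replicate 1 of 3 h, with adjusted p = 0.0737, 0.0781 and 0.0956.

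Rsad2 (Entrez gene 58185) encodes viperin, which makes a nucleotide that stops viral RNA polymerases. With hepcidin at 3 h it stood at 9.17, 9.10 and 9.11, against 7.94, 8.87 and 8.00 with PBS at 3 h. The 1 h arrays held 7.89, 8.27 and 8.37 with hepcidin, against 8.13, 8.54 and 8.16 with PBS. The 3 hepcidin arrays of 3 h lay within a narrow band above every other array, and the nearest of these was PBS replicate 2 of 3 h. Rsad2 rose by 0.85 (SE 0.21, n = 3 each; adjusted p = 0.0381 in limma), or 1.81-fold. Leaving out PBS replicate 2 gave 1.15 (adjusted p = 0.000952). Leaving out any other array of the 3 h groups ended the call, with adjusted p between 0.0860 and 0.158, and so did leaving out hepcidin replicate 2 or PBS replicate 3 of 1 h, at 0.0542 and 0.0516. Its neighbour Cmpk2, named because it lies next to Rsad2 in RefSeq and is also interferon-induced, differed by 0.11 at 3 h (SE 0.16; adjusted p = 0.780).

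Mx1 (Entrez gene 17857) belongs to the dynamin-like GTPases that restrict influenza and related viruses. RefSeq GRCm38.p6 classes it as a transcribed pseudogene, since the reference strain carries a deletion in the gene; the strain of these mice is not given. Its values were 5.35, 5.86 and 6.10 with hepcidin at 3 h and 4.77, 5.45 and 4.85 with PBS at 3 h. At 1 h they were 4.62, 4.71 and 4.97 with hepcidin and 4.33, 4.92 and 5.00 with PBS. The 3 h groups overlapped through a single pair of arrays, since PBS replicate 2 lay above hepcidin replicate 1. The difference at 3 h was 0.75 (SE 0.23, n = 3 each), with a 95% interval of 0.25 to 1.25, and did not pass (adjusted p = 0.0930 in limma). Without hepcidin replicate 1 it passed, at 0.96 with adjusted p = 0.0353, and without PBS replicate 2, at 0.96 with adjusted p = 0.0427. Those arrays held the lowest hepcidin and the highest PBS value of 3 h, so leaving out either widens the difference. Without any other single array it did not pass, with adjusted p between 0.0660 and 0.301 in limma.

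Ifit2 and Ifit3 are close relatives of Ifit1 that lie beside it on chromosome 19, in the order Ifit2, Ifit3, Ifit1bl1, Ifit3b, Ifit1bl2 and Ifit1, and their products act with it on foreign RNA. Ifit2 (Entrez gene 15958) stood at 5.79, 5.85 and 5.57 with hepcidin and 5.90, 6.13 and 5.43 with PBS at 3 h. In Ifit3 (Entrez gene 15959) the values were 5.53, 5.53 and 5.52 with hepcidin, against 5.40, 5.98 and 5.90 with PBS at 3 h. Hepcidin values of 3 h lay inside the PBS range of 3 h for both genes, and the differences were -0.08 (95% interval -0.46 to 0.29) for Ifit2 and -0.23 (95% interval -0.54 to 0.07) for Ifit3. At 1 h, Ifit2 was 5.40, 5.69 and 5.71 with hepcidin and 5.37, 5.86 and 5.60 with PBS, and Ifit3 was 5.27, 5.71 and 5.58 with hepcidin and 5.73, 5.70 and 5.77 with PBS, with overlap in each gene. The 3 h interval of Ifit1, 0.47 to 1.43, lies wholly above both of these, although the difference between the genes was not tested. Probe sequences are not used here, so signal shared among Ifit3, Ifit3b and the Ifit1-like copies, or between Mx1 and Mx2, is uncertain.

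Oasl1 (Entrez gene 231655), an oligoadenylate synthetase-like protein that in mice restrains translation of Irf7, had 5.46, 5.65 and 5.62 with hepcidin, against 5.32, 5.76 and 5.50 with PBS at 3 h. At 1 h the values were 5.43, 5.90 and 5.83 with hepcidin, against 5.03, 5.90 and 5.57 with PBS. No pair of groups separated, and the 3 h difference was 0.05 (95% interval -0.37 to 0.47).

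Isg15 (Entrez gene 100038882) encodes a ubiquitin-like protein that is attached to other proteins during infection. It stood at 5.19, 5.31 and 5.20 with hepcidin, against 4.95, 5.15 and 4.90 with PBS at 3 h. The 1 h values were 5.20, 5.44 and 5.55 with hepcidin, against 5.08, 5.55 and 5.47 with PBS. The 3 h groups did not overlap, yet the gap between the lowest hepcidin and the highest PBS array was small, and the difference of 0.23 (SE 0.13; 95% interval -0.04 to 0.51) did not pass (adjusted p = 0.388). Of the 6 genes of ISG15 attachment and removal on the array, Isg15 and Usp18 included, 0 rose and 1 fell at 3 h. Beside them, 2.80% of all genes rose and 2.53% fell. The gene of the 6 that fell is named next. It was Trim25, a ligase that also activates the RNA sensor RIG-I, which fell by 0.50 (SE 0.06; adjusted p = 0.000454 in limma).

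Usp18 (Entrez gene 24110) removes ISG15 from proteins and damps the interferon receptor. Its values were 7.47, 7.61 and 7.36 with hepcidin at 3 h, against 7.49, 7.82 and 7.16 with PBS at 3 h. With hepcidin at 1 h they were 7.84, 8.28 and 8.29, against 8.02, 8.26 and 7.99 with PBS at 1 h. Every array of 3 h lay below every array of 1 h whichever the addition, and hepcidin and PBS overlapped at each time, with a 3 h difference of -0.01 (95% interval -0.36 to 0.34).

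Stat2 (Entrez gene 20847) is a subunit of the complex that binds the ISRE. It measured 7.76, 7.68 and 7.20 with hepcidin at 3 h, against 7.92, 8.04 and 7.87 with PBS at 3 h. The 1 h arrays gave 7.74, 8.08 and 8.06 with hepcidin, against 7.86, 8.21 and 8.11 with PBS. All 3 hepcidin arrays of 3 h lay under the PBS arrays of 3 h, with replicate 3 lowest, and the difference of -0.40 (SE 0.15; 95% interval -0.72 to -0.08) did not pass (adjusted p = 0.173 in limma).

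**Figure D2:**
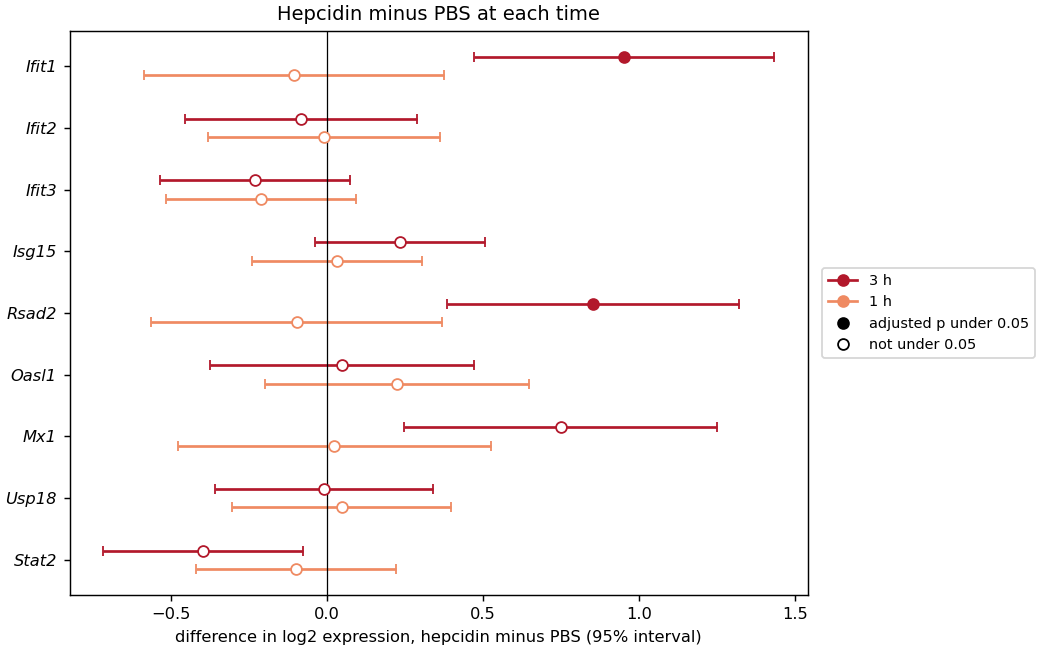
Difference in log2 expression, hepcidin minus PBS, for each gene at 3 h (dark) and at 1 h (light), with 95% intervals from limma and 3 arrays per group; filled points passed an adjusted p under 0.05. Ifit1 (0.95) and Rsad2 (0.85) at 3 h are the filled points, and every 1 h point lies between -0.21 and 0.22.

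At 1 h, 0 of the 9 genes passed in limma and 0 had an unadjusted p under 0.05, where 0.559% of all genes passed, 0.527% higher and 0.0324% lower. The groups overlapped in all 9 genes, while 6.47% of all genes did not overlap on the higher side and 5.86% on the lower side. The largest differences were 0.22 for Oasl1 (95% interval -0.20 to 0.65) and -0.21 for Ifit3 (95% interval -0.52 to 0.09). Ifit1 differed by -0.11 (95% interval -0.59 to 0.38) and Rsad2 by -0.10 (95% interval -0.56 to 0.37).

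Whether the hepcidin effect itself differed between the times was tested as 3 h minus 1 h. No gene of the set passed, beside 1.03% of all genes (0.523% higher and 0.507% lower), and 3 had an unadjusted p under 0.05 in limma. For Ifit1 the effects differed by 1.06 (SE 0.31; adjusted p = 0.203), for Rsad2 by 0.95 (SE 0.30; adjusted p = 0.253) and for Mx1 by 0.73 (SE 0.33; adjusted p = 0.483). Without PBS replicate 2 of 3 h, the Ifit1 difference was 1.33 (adjusted p = 0.0428) and that of Rsad2 1.25 (adjusted p = 0.0217). That array was the highest of its group in all 9 genes. Without any other single array neither gene passed. Adjusted p then lay between 0.228 and 0.399 for Ifit1 and between 0.264 and 0.465 for Rsad2 in limma.

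Change with time was compared within each treatment; these comparisons share arrays with those between hepcidin and PBS. With hepcidin, 3 of 9 genes rose and 1 fell at 3 h against 1 h, where 5.05% of all genes passed, 2.44% higher and 2.61% lower. The same 4 genes had groups that did not overlap, beside 10.5% of all genes higher and 9.56% lower. Mx1 averaged 5.77 ± 0.38 at 3 h and 4.77 ± 0.18 at 1 h with hepcidin (SD, n = 3 each), a rise of 1.00 (SE 0.23; adjusted p = 0.0260). Rsad2 rose by 0.95 (SE 0.21; adjusted p = 0.0238) and Ifit1 by 0.89 (SE 0.22; adjusted p = 0.0379). Usp18 fell by 0.66 (SE 0.16; adjusted p = 0.0354), with 7.48 ± 0.13 at 3 h and 8.14 ± 0.25 at 1 h (SD, n = 3 each). Without hepcidin replicate 2 of 3 h or of 1 h, or hepcidin replicate 3 of 3 h, none of the 4 calls held. Without hepcidin replicate 1, Mx1 alone passed where the 3 h array was left out and Usp18 alone where the 1 h array was. Rsad2 and Mx1 passed without hepcidin replicate 3 of 1 h, and the Usp18 call was lost without PBS replicate 1 of 3 h (adjusted p = 0.0505).

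With PBS, 0 of 9 genes passed between 3 h and 1 h, where 0.450% of all genes did, 0.207% higher and 0.243% lower, and 2 had an unadjusted p under 0.05 in limma. Usp18 was the largest, with 7.49 ± 0.33 at 3 h and 8.09 ± 0.15 at 1 h (SD, n = 3 each), a difference of -0.60 (SE 0.16; adjusted p = 0.158). It was also the 1 gene of 9 whose PBS groups did not overlap on the lower side, beside 9.04% of all genes, and 0 of 9 stood apart on the higher side, beside 8.66%. Isg15 differed by -0.36 (SE 0.13; adjusted p = 0.277). Ifit1 and Rsad2, which rose with time under hepcidin, differed by -0.17 (95% interval -0.65 to 0.31) and 0.00 (95% interval -0.47 to 0.46) under PBS. Mx1, which also rose under hepcidin, differed by 0.28 (95% interval -0.23 to 0.78) under PBS.

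**Figure D3:**
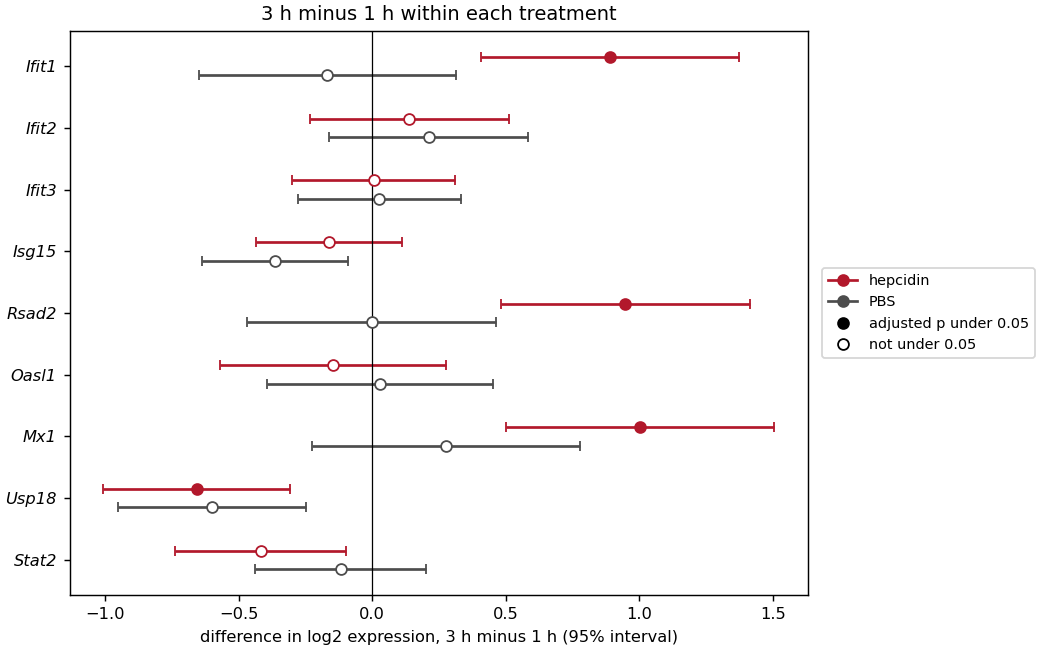
Difference in log2 expression between 3 h and 1 h, within hepcidin (red) and within PBS (grey), with 95% intervals from limma and 3 arrays per group; filled points passed an adjusted p under 0.05. Ifit1, Rsad2 and Mx1 are filled on the right for hepcidin, and Usp18 lies left of 0 for hepcidin (-0.66, filled) and for PBS (-0.60, open).

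The order of the 4 group means differed between genes. For Ifit1 it was 7.68 ± 0.16 with hepcidin at 3 h, then 6.90 ± 0.29 with PBS at 1 h, 6.79 ± 0.29 with hepcidin at 1 h and 6.73 ± 0.47 with PBS at 3 h (SD, n = 3 each), and the last 3 did not differ beyond their spread. Rsad2 averaged 9.13 ± 0.04 with hepcidin at 3 h, and its other group means, 8.28 ± 0.23 with PBS at 1 h, 8.27 ± 0.52 with PBS at 3 h and 8.18 ± 0.25 with hepcidin at 1 h, likewise lay within their spread. Mx1 averaged 5.77 ± 0.38 with hepcidin at 3 h, 5.02 ± 0.38 with PBS at 3 h, 4.77 ± 0.18 with hepcidin at 1 h and 4.75 ± 0.37 with PBS at 1 h, and each neighbour in that order overlapped the next. The 3 h means of Isg15 and Usp18 lay below their 1 h means, and in Stat2 hepcidin at 3 h was lowest. In Ifit2 and Oasl1 every pair of groups overlapped, and in Ifit3 hepcidin at 3 h and PBS at 1 h were the pair that did not.

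Arrays of the same group spread more widely on these genes than on the median gene. The median SD within a group was 0.127 with hepcidin at 3 h, 0.326 with PBS at 3 h, 0.225 with hepcidin at 1 h and 0.242 with PBS at 1 h, where the medians over all genes were 0.117, 0.0941, 0.102 and 0.0989 in the same order. Pooled over the groups, the SD was 0.245 for the set and 0.122 for all genes. Only 1.96% of all genes had a larger pooled SD than Mx1, 2.31% than Ifit1 and 2.65% than Rsad2. The deviations were shared within an array: PBS replicate 2 of 3 h was the highest of its group in 9 of 9 genes, with a mean deviation of 0.32 from the group mean, and hepcidin replicate 1 of 1 h was the lowest of its group in 9 of 9, with a mean deviation of -0.25. In PBS at 1 h, replicate 1 was lowest and replicate 2 highest in 7 genes each.

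Other antiviral ISGs were compared in the same way. PBS replicate 2 of 3 h was the highest of its group in 53 of 71 of them, against 30.8% of all genes, and hepcidin replicate 1 of 1 h the lowest in 46 of 71, against 37.9% of all genes. Hepcidin replicate 3 of 3 h was the lowest of its group in 41 of the 71, against 31.7% of all genes, and in 5 of the 9 genes of the set. Without that array Ifit1 still passed at 3 h (adjusted p = 0.0438 in limma) and Rsad2 did not (0.103). The medians of PBS replicate 2 of 3 h and hepcidin replicate 1 of 1 h were 4.87 and 4.84, the second being the lowest of the 12. Irf7, a transcription factor that amplifies the interferon response, was 8.30, 8.89 and 8.36 with hepcidin and 8.22, 9.04 and 8.52 with PBS at 3 h, and 8.24, 9.38 and 9.23 with hepcidin and 8.52, 9.26 and 8.88 with PBS at 1 h. Replicate 2 was thus highest in every group for Irf7. When limma weighted the arrays by their spread, Ifit1 passed at 3 h (adjusted p = 0.0437) and Rsad2 did not (0.0787). With the replicate number as a block, Ifit1, Rsad2 and Mx1 all passed at 3 h (adjusted p = 0.00733, 0.0182 and 0.0201).

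**Figure D4:**
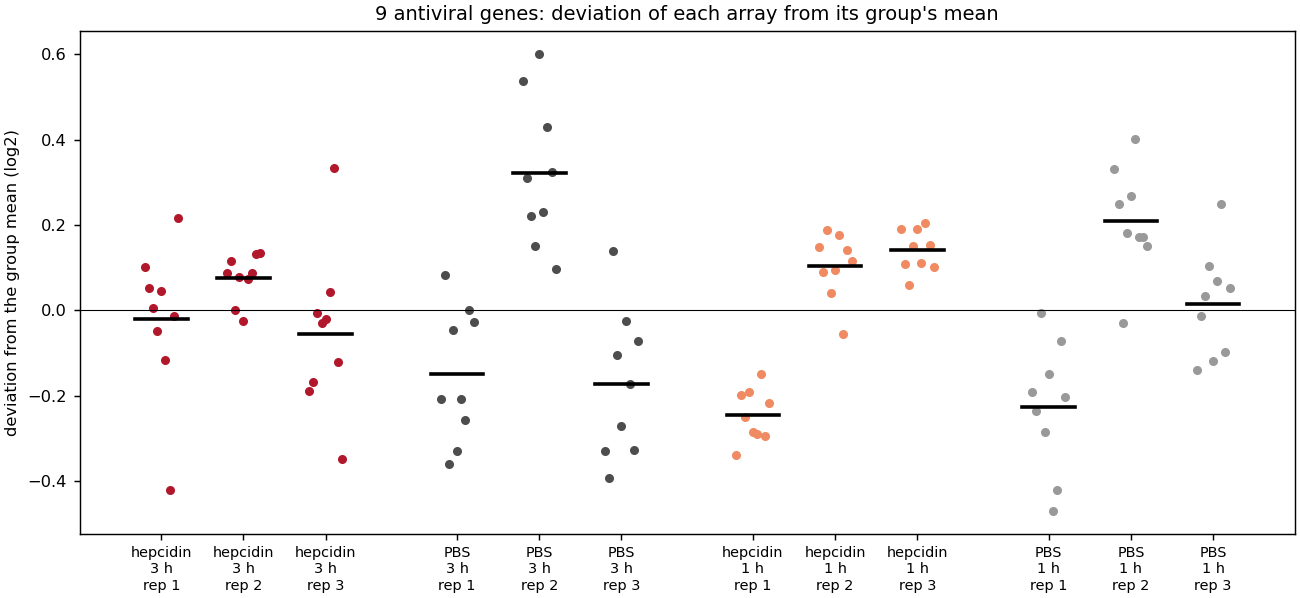
Each point is 1 of the 9 genes on 1 array, as its log2 deviation from the mean of its group's 3 arrays; black bars are the mean over the 9 genes. All 9 points of PBS replicate 2 at 3 h lie above 0 (mean 0.32), and all 9 of hepcidin replicate 1 at 1 h lie below 0 (mean -0.25).

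The genes most like the mean pattern of the set over the 12 arrays, each gene of the set first centred and divided by its SD, were Il18bp (Pearson r = 0.889), Dspp (0.875), Ifi211 (0.861), Phf11d (0.856), Rxfp3 (0.855) and Dnaaf3 (0.845). Points that share an array share its deviation, so these values describe the arrays as much as the groups. Dspp, Rxfp3 and Dnaaf3 lay below the median of all gene means, and Phf11d also stands in the list of other antiviral ISGs. None of the 6 passed in either hepcidin comparison in limma, and for Ifi211, a p200 protein gene, the 3 h difference was 0.29 (SE 0.15; adjusted p = 0.359). Within the set, r with the mean ran between 0.336 for Stat2 and 0.807 for Oasl1.

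Upstream of these genes, 21 of 25 interferon and interferon receptor genes were on the array. At 3 h, 2 of the 21 rose and 0 fell, beside 2.80% of all genes higher and 2.53% lower. Ifnb1, which encodes interferon beta, was 3.32, 3.20 and 3.32 with hepcidin and 3.10, 3.12 and 3.07 with PBS at 3 h. Those groups did not overlap, but all 6 values lay below the array median, and the difference of 0.18 (SE 0.09) had adjusted p = 0.353 in limma. The 1 h difference of Ifnb1 was 0.03 (95% interval -0.17 to 0.23). Ifngr1, a chain of the interferon gamma receptor, rose by 0.51 (SE 0.08; adjusted p = 0.00283) and Ifnar1 by 0.27 (SE 0.07; adjusted p = 0.0440) at 3 h. The Ifnar1 call was lost without PBS replicate 2 of 3 h or hepcidin replicate 1 of 1 h, and fits without other arrays are not given for it. Ifnar2 differed by -0.10 (adjusted p = 0.482). At 1 h 0 of the 21 passed, beside 0.559% of all genes, and 1 had an unadjusted p under 0.05 in limma.

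Among 12 signal transducers measured, hepcidin raised 5 and lowered 0 at 3 h, beside 2.80% of all genes higher and 2.53% lower. At 1 h it raised 2 of the 12, beside 0.527% of all genes higher. Socs3, a feedback inhibitor of cytokine receptors, rose by 1.42 at 3 h (SE 0.13; adjusted p = 2.91e-05) and 1.77 at 1 h. Jak2, a receptor kinase, rose by 0.89 at 3 h and differed by 0.19 at 1 h (adjusted p = 0.687), and the difference between its effects passed (0.70, SE 0.11; adjusted p = 0.0106). Irf1, a transcription factor induced by NF-kB, rose by 0.70 at 3 h and 1.36 at 1 h, and the effect at 3 h minus that at 1 h was -0.66 (SE 0.13; adjusted p = 0.0323). The kinase Tyk2 rose by 0.44 at 3 h. Irf9, the DNA-binding partner of Stat2, differed by -0.24 at 3 h (SE 0.09; adjusted p = 0.155), Irf7 by -0.08 (adjusted p = 0.933) and Irf3, the factor that starts Ifnb1 transcription, by 0.16 (adjusted p = 0.587).

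In the list for the sensing of nucleic acids, which also holds Tlr4, 1 of 19 measured genes rose and 3 fell at 3 h. Beside them, 2.80% of all genes rose and 2.53% fell. Ikbke, a kinase that phosphorylates Irf3, was 9.04, 9.22 and 9.20 with hepcidin and 7.59, 7.54 and 7.67 with PBS at 3 h, a rise of 1.55 (SE 0.11). Its rise at 1 h was 0.56 (SE 0.11; adjusted p = 0.0414 in limma). The rise did not pass without PBS replicate 2 of 3 h or hepcidin replicate 1 of 1 h, and fits without other arrays are not given for it. Besides Trim25, the genes that fell at 3 h were Tlr7, a receptor for viral RNA, by 0.44 (SE 0.09) and Tlr4, the endotoxin receptor, by 0.42 (SE 0.06).

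Beyond the set, 71 of 76 other antiviral ISGs were measured. Of these, 9 rose and 1 fell at 3 h, beside 2.80% of all genes higher and 2.53% lower. Their median change was -0.02 against 0.02 over all genes. Mx2, the close relative of Mx1, was 5.14, 5.55 and 5.48 with hepcidin and 4.24, 5.20 and 4.36 with PBS at 3 h, a rise of 0.79 (SE 0.21; adjusted p = 0.0460) although its groups overlapped. Slfn2, a gene of T cell quiescence and interferon response, rose by 0.64 (SE 0.07) at 3 h. At 1 h it rose by 0.51 (SE 0.07) and was the 1 of 71 that passed, beside 0.559% of all genes. Apobec3, a cytidine deaminase that restricts retroviruses, and Parp14, an ADP-ribosyltransferase, each rose by 0.53 at 3 h (SE 0.12 and 0.09). Pml, named as the 1 gene that fell, dropped by 0.35 (SE 0.07; adjusted p = 0.0130). Without PBS replicate 2 of 3 h, 6 rose and 0 fell.

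A list of 28 genes that both interferon and NF-kB induce had 13 genes that rose and 1 that fell at 3 h, with a median change of 0.40. Over all genes 2.80% rose and 2.53% fell at 3 h. At 1 h 6 of the 28 rose, beside 0.527% of all genes higher. Cxcl10, a chemokine for T cells, was 8.96, 9.22 and 8.68 with hepcidin and 5.99, 6.46 and 5.55 with PBS at 3 h, a rise of 2.95 (SE 0.22) that followed one of 1.94 (SE 0.22) at 1 h. Ptgs2, the inducible prostaglandin synthase, rose by 3.25 at 3 h and 2.58 at 1 h. The death receptor gene Fas rose by 2.69 at 3 h and 0.95 at 1 h, and Ifi205, a p200 protein gene, rose by 2.45 at 3 h (SE 0.32) and differed by 0.67 at 1 h (adjusted p = 0.738). All 12 early NF-kB targets rose at each time, with median changes of 2.18 at 3 h and 2.89 at 1 h, and those with the largest changes are named. The neutrophil chemokine Cxcl2 rose by 5.27 at 3 h (SE 0.20) and 6.12 at 1 h, and Acod1, which makes itaconate, by 5.94 at 3 h (SE 0.15) and 3.66 at 1 h. The cytokine genes Il1b and Tnf rose by 4.12 and 2.67 at 3 h and by 2.96 and 3.60 at 1 h. The members of the lists were chosen with these results known, and no test compared the lists with each other.

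**Figure D5:**
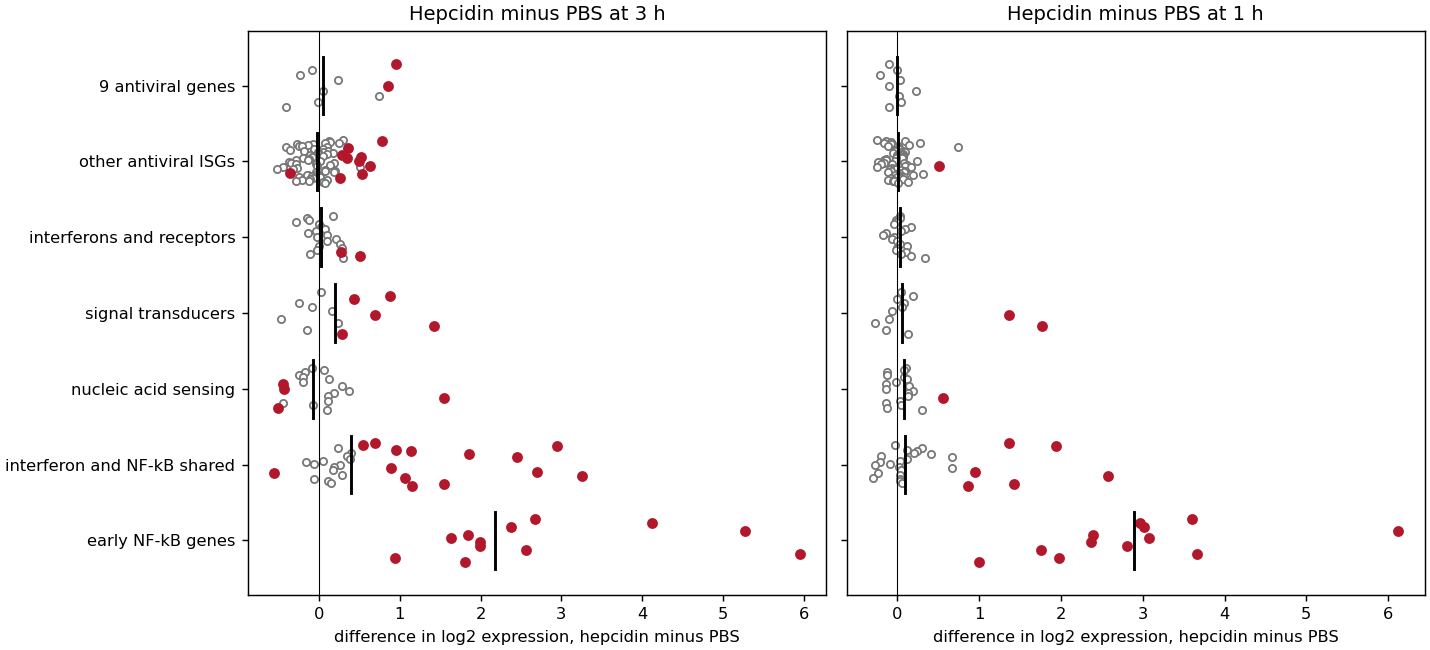
Each point is 1 gene, by its log2 difference between hepcidin and PBS at 3 h (left) and 1 h (right); filled points passed an adjusted p under 0.05 in limma, black bars are list medians, and some genes stand in more than 1 list. The 9 antiviral genes (2 filled) and other antiviral ISGs (10 filled) centre near 0 at 3 h, and the 12 early NF-kB genes are all filled at each time.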

How the data were processed

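The deposited series table holds 1 value for each of 25429 probe sets on 12 arrays, which the submitters' processing notes connect with RMA and Partek. The authors deposited values that were taken as log2 values made by RMA, the scale on which RMA reports and which their range matches; the log base, tool versions and genome build are not given in the sources used here. Of the probe sets, 24675 had 1 gene symbol in the platform annotation, and 754 are unnamed here.

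A linear model of 4 group means was fitted to all named genes by limma 3.58.1 under R 4.3.3 (lmFit, contrasts.fit, eBayes; 8 residual degrees of freedom), with no filter on level. P-values were adjusted by Benjamini and Hochberg within each of 5 comparisons, and a gene passed at an adjusted p under 0.05. Counts at an unadjusted p under 0.05 are given without the share over all genes, which was not computed. Intervals are 95% from the same fit. An exact permutation test of 3 against 3 arrays cannot go below p = 0.1 and was not used. Named are the 9 genes, up to 4 genes per pathway list with the largest change past the threshold in either hepcidin comparison, key interferon genes whatever their result (1 is not reported here), and the 6 genes of most similar pattern; others are named with the reason beside them. The genes and lists were chosen with earlier results of these data known. Same-numbered arrays were checked for shared deviations and treated as unpaired. RefSeq GRCm38.p6 supplied promoters, gene classes and gene order. Alternatives were a trended and robust prior, a replicate block, genes above the median mean, median centring, quantile normalization, array weights, only the groups compared, all probe sets, a threshold of 0.1 on the adjusted p, and fits without each array in turn. The number of arrays limits the precision.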

Additional observations from a re-analysis of the deposited data

How the results depend on the processing

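No call of the 9 genes turned its sign under any alternative. The main fit had 2 calls at 3 h and 4 between the hepcidin groups, and only these could be lost. Over all alternatives they were lost 37 times, a call was gained 6 times, and 48 changes turned sign while uncalled in both fits. Most of the 936 log2 changes compared were uncalled in the main fit, and the threshold of 0.1 reuses that fit. The 2 genes that rose at 3 h became 1 (Ifit1) with array weights and 0 with only the groups compared in the fit, where Ifit1 had adjusted p = 0.0603 and Rsad2 0.105. Leaving out 1 array gave 0 to 3 genes at 3 h, 0 to 4 between hepcidin at 3 h and at 1 h (2 with array weights), 0 to 2 for the difference between the effects, and 0 in the other comparisons; the 1 h and PBS comparisons gave 0 in every setting. Over all genes, the 1316 calls at 3 h became 805 with only the groups compared and 837 to 1287 with an array left out. They became 1690 with a trended prior, 1615 with the replicate block, 1727 above the median mean and 1916 at an adjusted p under 0.1. The 138 at 1 h became 99 to 139 with an array left out and 177 with a trended prior. The 254 of the effect difference became 433 with a trended prior, 412 above the median mean, 391 at an adjusted p under 0.1 and 141 to 234 with an array left out. The 111 between the PBS groups became 319, 333 and 248 in those 3 settings, 285 with array weights, 64 after median centring, 7 with only the groups compared and 23 to 126 with an array left out. The 1246 between the hepcidin groups became 616 with only the groups compared and 721 to 1178 with an array left out. They became 1602 with a trended prior, 1529 with the replicate block, 1675 above the median mean and 1760 at an adjusted p under 0.1. Counts with only the groups compared rest on 6 arrays each.

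With the replicate number as a block, Mx1 joined Ifit1 and Rsad2 at 3 h (adjusted p = 0.0201; 3 genes in all), and 240 genes passed between the PBS groups. Of 18 same-numbered pairs, 9 correlated over 0.1 in their deviations (-0.005 to 0.246). In 14 of 18 choices, each among the 3 arrays of another group, the best correlation was with the same number. The labels do not say whether equal numbers mark a shared batch. The main fit treated the arrays as unpaired, and whether they are paired was not tested. The deviation of PBS replicate 2 at 3 h was 0.34 after median centring and 0.32 after quantile normalization. Counts of list genes without PBS replicate 2 of 3 h or hepcidin replicate 1 of 1 h were added after seeing the data. Counts of list genes without other arrays are not given. Leaving out hepcidin replicate 1 of 1 h left 8 of the other antiviral ISGs risen and 1 fallen at 3 h, without Mx2.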

Other observations

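Between hepcidin at 3 h and hepcidin at 1 h, 4 of 71 other antiviral ISGs rose and 5 fell in limma. Beside them, 2.44% of all genes rose and 2.61% fell. The ISGs that passed are all named here after their values were seen. Trim21, an antibody receptor of the cytosol, rose by 0.46 (SE 0.07; adjusted p = 0.00321), and Ifitm1, which hinders viral entry, rose by 0.42 (SE 0.08), followed by Trafd1 at 0.39 and Parp14 at 0.34. Rtp4 fell by 0.67 (SE 0.16; adjusted p = 0.0308), Slfn9 by 0.66, Oas3, a sensor of double-stranded RNA, by 0.50, Irf9 by 0.49 and Pml by 0.34. Under PBS, 0 of the 71 passed between the times, beside 0.450% of all genes. Tested directly, the hepcidin effect at 3 h minus that at 1 h passed in 0 of the 71, beside 1.03% of all genes. Between the times, 26 of the 71 with hepcidin and 14 under PBS had an unadjusted p under 0.05 in limma. Those shares over all genes were not computed.

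Bst2, which encodes tetherin and was singled out after its values were seen, had the largest difference of the other antiviral ISGs at 1 h, 0.75 (SE 0.26), without passing (adjusted p = 0.559), and its 3 h difference was -0.41 (adjusted p = 0.489).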
